A study of Mus musculus with 6 samples.

Results

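Fatty acid oxidation and the citric acid cycle are described here through 39 genes, chosen by name, in polyadenylated RNA of the outer layer of the embryonic mouse heart. All 39 were among the 14549 genes of the deposited table. They comprise 25 genes of fatty acid uptake, activation, oxidation and linked ketone steps, together called fatty acid oxidation below, and 14 of the citric acid cycle. The study dissected epicardium and subepicardium at E16.5. The 3 dKO pools, titled dKO 1, 2 and 3, came from Meis1fl/fl;Meis2fl/fl;WT1-Cre embryos, which lack the homeodomain factors Meis1 and Meis2 in cells where the WT1 promoter has driven Cre. The 3 control pools, titled C 1, 2 and 4, are labelled wild-type, and the labels do not tell if they carried floxed alleles or Cre. Hearts were pooled in pairs of like genotype and 40 ng of RNA went into each library, so the libraries do not show how single hearts vary. The share of recombined cells in each dKO pool was not measured either.

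Long-chain fatty acids enter heart cells through CD36 and binding proteins, are joined to coenzyme A, pass the inner mitochondrial membrane as carnitine esters and are shortened in the beta-oxidation spiral. The acetyl-coenzyme A released there, like that made from pyruvate or ketone bodies, is oxidised in the citric acid cycle, which feeds electrons to the respiratory chain. Heart muscle is among the tissues richest in both pathways, and the fetal heart relies more on glucose and lactate than the adult heart, which mainly burns fatty acids.

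Levels are given as normalised read counts, the deposited values, which scale as reads per 1000000 of an adjusted library size. The reads recovered from them ran from 13146322 to 20635676 per library. Meis2 averaged 41.3 ± 5.59 in dKO pools and 78.3 ± 13.0 in control pools, and Meis1 averaged 65.9 ± 7.82 in dKO pools and 77.8 ± 24.8 in control pools (SD, n = 3 each). Both values cover all exons and so do not measure the deleted part. Of the cell type markers, those of cardiomyocytes and of epicardial and mesothelial cells moved most with genotype. The summed level of 20 cardiomyocyte markers was 36623 to 39551 in dKO pools and 7049 to 15400 in control pools. All 20 had a positive log2 change, dKO minus control, and none was without reads. Of them 18 passed upward at the threshold defined below, against 9.81% of all genes. The summed level of 13 epicardial and mesothelial markers was 337 to 408 in dKO pools and 2038 to 2833 in control pools. All 13 passed downward, against 12.2% of all genes. Control 1 stood apart from the other controls. Its mean log2 value over the cardiomyocyte markers was 7.04, against 8.14 and 8.18 in controls 2 and 4 and 9.63, 9.34 and 9.39 in the dKO pools. Endothelial markers, whose cells also take up fatty acids, summed to 1421 to 1599 in dKO pools and 1168 to 1761 in control pools, and 1 of 10 passed, downward. None of the 8 macrophage markers had a positive log2 change, and 4 passed downward, against 12.2% of all genes. Their sums were 169 to 219 in dKO pools and 369 to 543 in control pools. None of the 7 adipocyte and 7 liver markers was among the genes analysed. In bulk RNA a change in the number of cells of a type and a change in RNA per cell cannot be told apart.

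Genes of both pathways were higher in the dKO pools. Of the 25 fatty acid oxidation genes, 17 rose and 0 fell, and of the 14 citric acid cycle genes 13 rose and 0 fell. A rise or fall means an adjusted p below 0.05 in limma, a linear model with moderated variances, fitted to log2 of the value plus 1 over all 14549 genes. Of all genes tested, 9.81% rose and 12.2% fell. The median log2 change, dKO minus control, was 0.77 over fatty acid oxidation genes and 0.89 over citric acid cycle genes, against 0.00 over all genes. The 30 genes that rose did so by 1.53-fold to 2.67-fold between group means. All dKO pools lay above all control pools for 20 fatty acid oxidation genes and 14 citric acid cycle genes, an arrangement found for 19.3% of all genes, and below them for 1 gene, Cd36, against 21.1% of all genes. The 39 genes together summed to 12359 to 12777 in dKO pools and 5458 to 8309 in control pools. The dKO pools were thus close to one another, while the controls were spread out. With edgeR's quasi-likelihood test on the recovered reads, the same counts of 17 and 13 genes rose, against 8.96% of all genes higher and 11.4% lower. The other fits whose calls are given below called, of all genes, 11.1% higher and 13.8% lower with DESeq2 and 3.99% higher and 5.36% lower with replicate numbers as a block. With 1 pool left out, limma called 8.08% higher and 10.6% lower without dKO 1, 6.25% and 9.01% without dKO 2, 6.17% and 8.72% without dKO 3, 8.06% and 10.4% without control 1, 8.2% and 9.81% without control 2, and 8.67% and 10.1% without control 4. Without dKO 1 and control 1 together it called 9.82% higher and 12% lower.

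**Figure D1:**
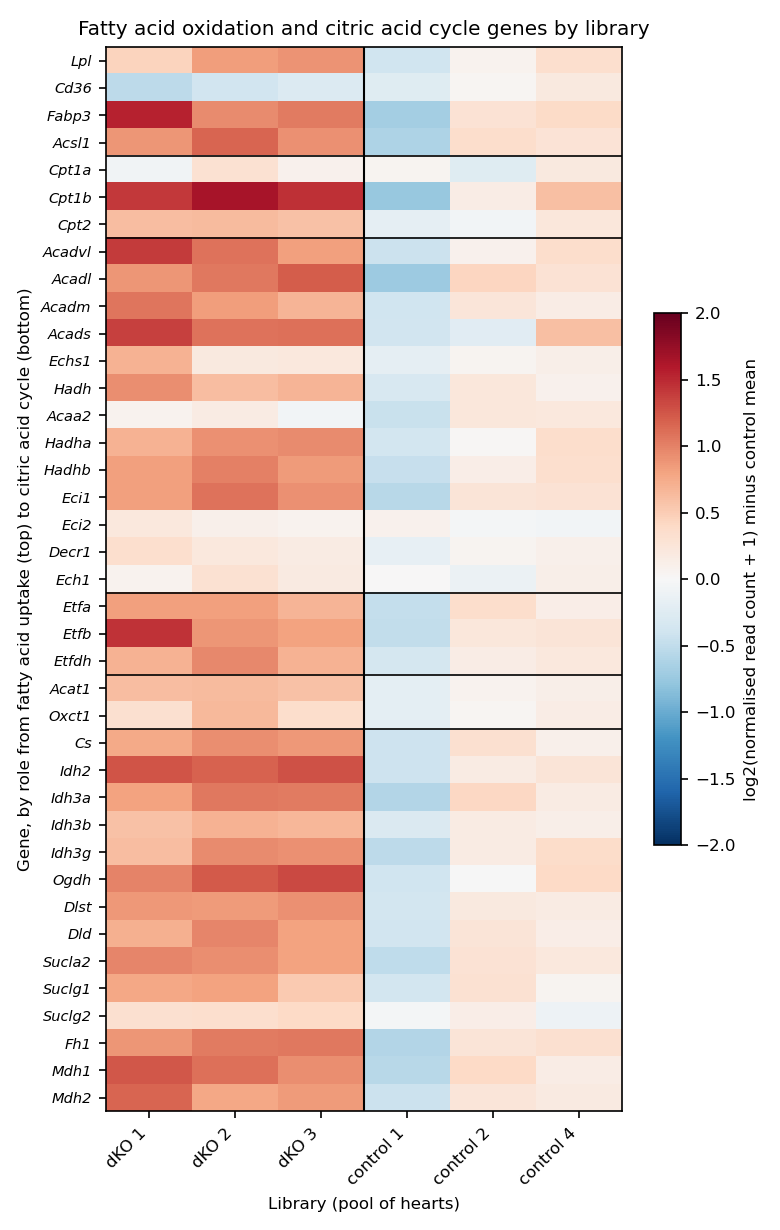
Levels of the 39 genes in each library as log2(normalised read count + 1) minus the control mean, with the 3 dKO pools to the left of the line and the 3 control pools to the right; horizontal lines separate roles. The dKO columns are mostly red, Cd36 is blue in all 3 dKO pools, and control 1 is the palest or bluest column for most genes.

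The rise was smaller than that of cardiomyocyte markers and had a like pattern over the libraries. Cardiomyocyte markers had a median log2 change of 1.72, above the estimate of each of the 39 genes, although the 95% intervals of Cpt1b, Fabp3 and Acads reach past it. The control pools share the wild-type label. Among the 3 controls, control 1 had the lowest level for 22 of 25 fatty acid oxidation and 13 of 14 citric acid cycle genes, against 38.4% of all genes. It was the lowest of all 6 libraries for 34 of the 39 genes, against 25% of all genes. List medians relative to the control mean were 0.83, 0.94 and 0.89 for the citric acid cycle in dKO 1, 2 and 3, against -0.41, 0.25 and 0.16 in controls 1, 2 and 4. For fatty acid oxidation they were 0.70, 0.83 and 0.69 in the dKO pools, against -0.38, 0.09 and 0.22 in the controls. Cardiomyocyte markers had 1.81, 1.59 and 1.61 in the dKO pools, against -0.72, 0.32 and 0.38 in the controls, so control 1 lay below the other controls in all 3 lists. Endothelial markers also had their lowest control level in control 1, for 10 of 10 genes, with medians of 0.24, 0.25 and 0.06 in the dKO pools, against -0.33, 0.00 and 0.32 in the controls. When that cardiomyocyte mean entered the fit as a covariate, 0 of the 39 genes passed, at a smallest adjusted p of 0.168 in limma. That fit called 0.406% of all genes higher and 1.51% lower. The medians were then -0.034 for fatty acid oxidation and -0.033 for the citric acid cycle. The covariate itself does not overlap between the genotypes, and the standard errors (SE) of the log2 changes ran from 0.25 to 0.53 with it and from 0.11 to 0.28 without it. The part of the cardiomyocyte RNA in the rise was not tested beyond this.

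**Figure D2:**
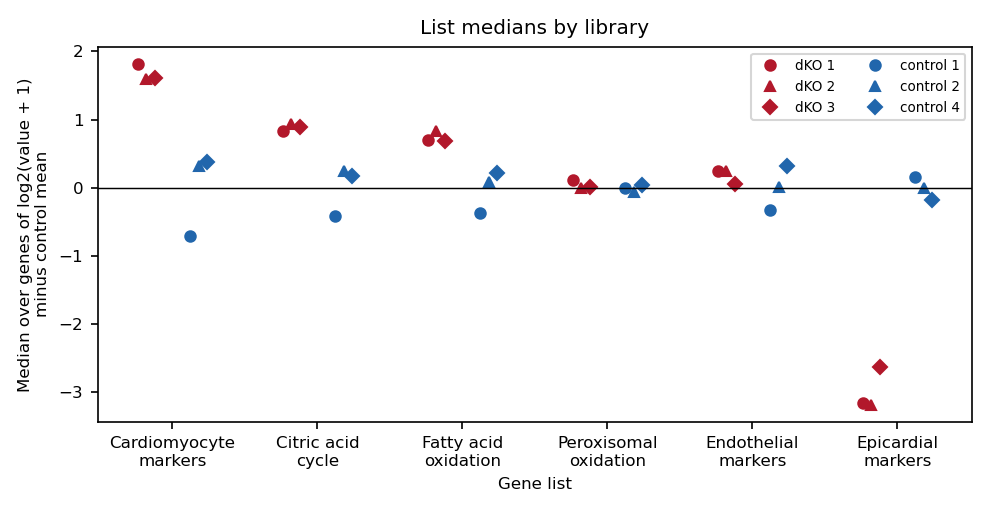
Median over the genes of each list of log2(value + 1) minus the control mean, per library, with dKO pools left and control pools right within each list. Cardiomyocyte, citric acid cycle and fatty acid oxidation lists lie above 0 in all dKO pools with control 1 lowest, the peroxisomal list stays near 0, and epicardial markers lie at -2.64 or below in dKO pools.

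Fatty acid uptake and activation came first in the order of the pathway, and 3 of 4 genes rose. Fabp3, the heart-type fatty acid binding protein of the cytosol, had 501, 335 and 355 normalised read counts in the dKO pools and 108, 211 and 226 in the control pools. The Fabp3 log2 change was 1.17 (SE 0.26, limma adjusted p = 0.0106). Acsl1, the main acyl-coenzyme A synthetase of heart, had 128, 155 and 130.1 in the dKO pools and 44.2, 88.4 and 82.9 in the control pools (log2 change 0.99, SE 0.23, limma adjusted p = 0.0129). Both were higher in every dKO pool than in any control pool, and both were lowest in control 1. Lpl, the lipase that frees fatty acids from circulating lipoproteins, had 305, 398 and 418 in the dKO pools and 168, 234 and 282 in the control pools (log2 change 0.73, SE 0.20, limma adjusted p = 0.0236). Lpl is also made by cells other than cardiomyocytes, and it no longer passed when dKO 2 (limma adjusted p = 0.0812), dKO 3 (0.0906) or control 2 (0.0521) was left out. The Acsl1 call was lost without dKO 2 (limma adjusted p = 0.0524). Of the exonic bases of Fabp3, 19.6% are shared with other annotated genes, Zcchc17 foremost, so its reads may not be wholly its own.

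Cd36, the fatty acid translocase, which endothelial cells and macrophages also carry, was the one gene of the 39 with a negative change. It is singled out here after its values were seen. Cd36 had 301, 330.3 and 358 in the dKO pools and 366, 446 and 496 in the control pools, so the groups did not overlap. Its log2 change was -0.39 with a 95% interval from -0.72 to -0.07, and it did not pass (limma adjusted p = 0.0777). Without control 1, the library lowest in cardiomyocyte markers, Cd36 fell by 0.51 on the log2 scale (limma adjusted p = 0.0205).

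At the carnitine shuttle, the 2 isoforms of the first enzyme differed. Carnitine palmitoyltransferase 1 attaches fatty acids to carnitine at the outer mitochondrial membrane and is the step that malonyl-coenzyme A inhibits. The muscle isoform Cpt1b had 233, 276 and 240.3 in the dKO pools and 51.2, 96.3 and 133 in the control pools. This was the largest rise among the 39 genes, 2.67-fold between means (log2 change 1.51, SE 0.28, limma adjusted p = 0.0038). The liver isoform Cpt1a, which most other cells use, had 85.9, 112 and 95.9 in the dKO pools and 94.3, 76.1 and 104 in the control pools. Those groups overlapped, and the Cpt1a change of 0.10 had a 95% interval from -0.23 to 0.44 (limma adjusted p = 0.679). The ratio of Cpt1b to Cpt1a within a library was 2.71, 2.46 and 2.51 in the dKO pools and 0.543, 1.27 and 1.28 in the control pools. On the log2 scale the ratio differed by 1.40 between genotypes, dKO minus control (exact two-sided permutation p = 0.1, the smallest that 3 against 3 libraries allow). Without control 1 that difference was 1.0. According to the annotation, 81.4% of the exonic bases of Cpt1b overlap another gene, Gm44502, so reads may have been split between them. Cpt2, which turns the carnitine ester back inside the mitochondrion, had 38.4, 38.8 and 37.5 in the dKO pools and 21.7, 23.9 and 29.3 in the control pools (log2 change 0.61, SE 0.15, limma adjusted p = 0.019). The dKO values were nearly equal, and Cpt2 no longer passed when dKO 2 (limma adjusted p = 0.0668), dKO 3 (0.0625) or control 2 (0.0533) was left out.

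**Figure D3:**
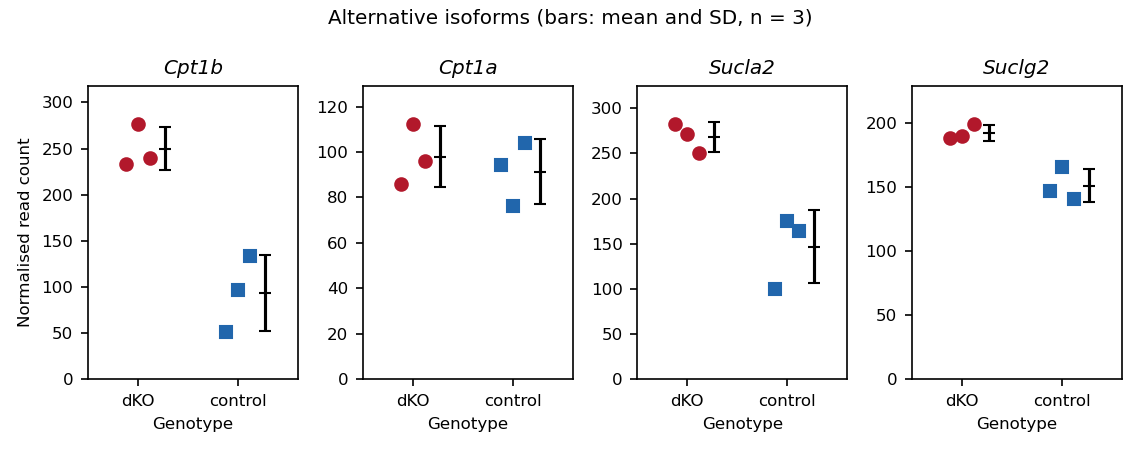
Normalised read counts of Cpt1b, Cpt1a, Sucla2 and Suclg2 in 3 dKO pools (circles, left) and 3 control pools (squares, right), with black bars for the mean and SD. The Cpt1b groups are widely separated, at 233 to 276 in dKO pools and 51.2 to 133 in control pools, while the Cpt1a groups overlap.

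In the beta-oxidation spiral, 8 of 13 genes rose. Of the 9 core enzymes 7 rose, while of the 4 accessory enzymes that handle unsaturated chains 1 did. The acyl-coenzyme A dehydrogenases, which start each turn and differ in the chain length they prefer, rose in all 4 cases. Acadvl, for very long chains, had 257, 205 and 171 in the dKO pools and 70.9, 103 and 123 in the control pools (log2 change 1.10, SE 0.21, limma adjusted p = 0.00443). Acadl, for long chains, had 749.7, 848 and 941 in the dKO pools and 246, 548 and 496 in the control pools (log2 change 1.05, SE 0.26, limma adjusted p = 0.0178). Acads, for short chains, had 27.4, 22.4 and 22.8 in the dKO pools and 7.50, 8.46 and 15.8 in the control pools (log2 change 1.18, SE 0.26, limma adjusted p = 0.00948). For each of these the dKO pools lay above the control pools. The medium-chain enzyme Acadm changed by 0.86 (limma adjusted p = 0.00741). Acadl no longer passed when dKO 2 (limma adjusted p = 0.0531) or dKO 3 (0.064) was left out, and 42.9% of the exonic bases of Acadvl are shared with other genes, mainly Dvl2.

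The trifunctional protein, which carries out the remaining steps on long chains, is encoded by Hadha and Hadhb. Hadhb had 524, 597 and 538 in the dKO pools and 216, 324 and 373 in the control pools (log2 change 0.89, SE 0.19, limma adjusted p = 0.00771). Hadha averaged 566 ± 52.8 in dKO pools and 319 ± 77.3 in control pools (SD, n = 3 each), with a log2 change of 0.85 (limma adjusted p = 0.00741). The 2 subunits thus changed by nearly the same amount. Hadh, which oxidises shorter chains in the third step, averaged 162 ± 19.2 in dKO pools and 97.1 ± 18.4 in control pools and rose by 0.75. Echs1, the short-chain hydratase of the second step, averaged 129 ± 27.2 in dKO pools and 98.6 ± 10.5 in control pools and did not pass (log2 change 0.37, limma adjusted p = 0.127). Acaa2, the thiolase of the last step on medium chains, is singled out after its values were seen. It had 235, 251 and 217 in the dKO pools and 164, 264 and 261 in the control pools. Those groups overlapped, and the Acaa2 change was 0.06 with a 95% interval from -0.34 to 0.46 (limma adjusted p = 0.846). Without control 1 the Acaa2 change was -0.16 (limma adjusted p = 0.407).

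Among the enzymes for unsaturated chains, Eci1, a mitochondrial enoyl-coenzyme A isomerase, had 58.8, 70.8 and 62.8 in the dKO pools and 22.0, 39.5 and 40.3 in the control pools (log2 change 0.94, SE 0.22, limma adjusted p = 0.0119). The other three did not pass. Eci2, an isomerase found in mitochondria and peroxisomes, changed by 0.13 with a 95% interval from -0.12 to 0.38, and its groups overlapped. Decr1, the dienoyl-coenzyme A reductase, changed by 0.24 with an interval from -0.04 to 0.52, and its groups did not overlap. Ech1, an isomerase of dienoyl chains, changed by 0.19 with an interval from -0.10 to 0.47, and its groups overlapped. The upper ends of these intervals lie below the value of 0.94 found for Eci1, but the difference between the genes was not tested.

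**Figure D4:**
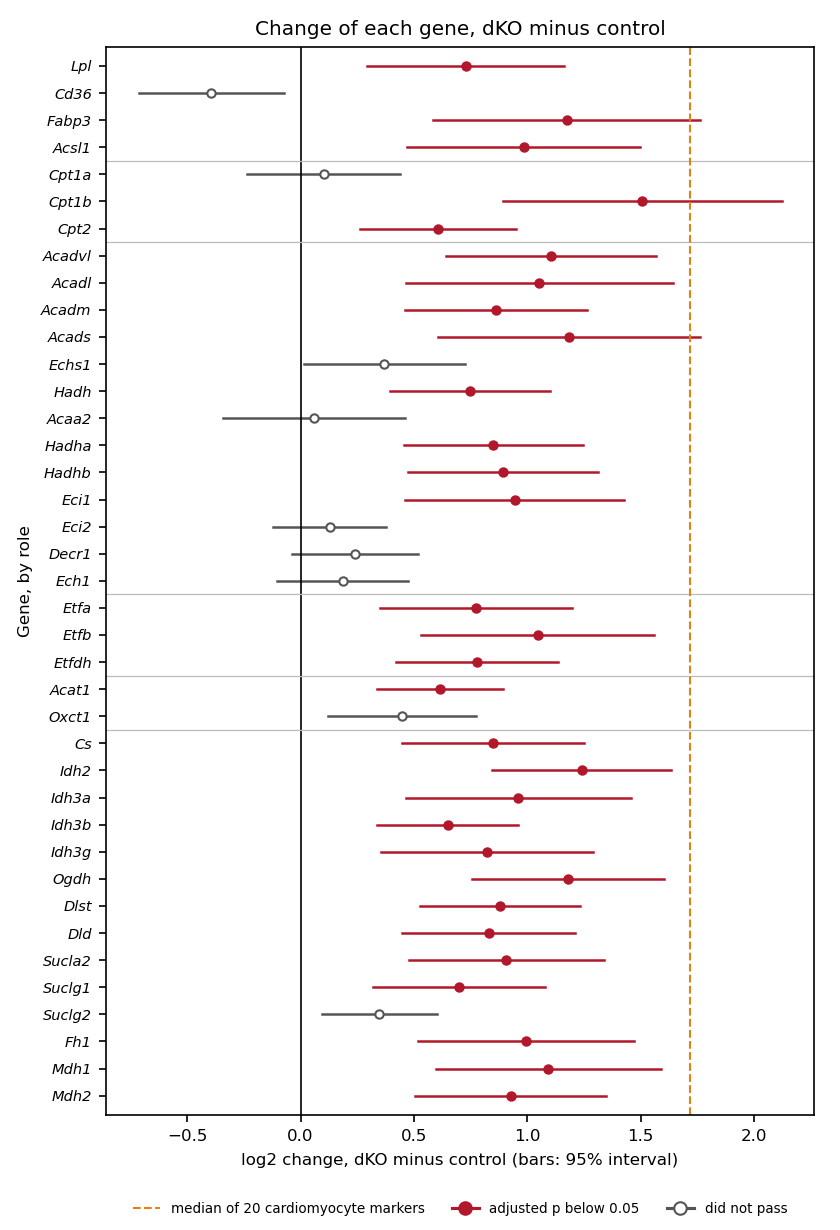
Log2 change of each of the 39 genes, dKO minus control, with 95% intervals, ordered by role from fatty acid uptake at the top to the citric acid cycle at the bottom. Filled red points passed the threshold (30 genes), open grey points did not (9 genes), and every point lies left of the dashed line at 1.72, the median of the 20 cardiomyocyte markers.

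All 3 genes of the electron transfer flavoprotein system, which passes electrons of the dehydrogenases to ubiquinone, rose. Etfb, the beta subunit, had 98.3, 66.2 and 62.8 in the dKO pools and 25.0, 41.6 and 42.8 in the control pools (log2 change 1.05, SE 0.23, limma adjusted p = 0.00974). Etfa, the alpha subunit, had 295, 294 and 269 in the dKO pools and 119, 213 and 183 in the control pools (log2 change 0.77, SE 0.19, limma adjusted p = 0.0162). Etfdh, the ubiquinone oxidoreductase, had 190.1, 229 and 191 in the dKO pools and 92.4, 129.9 and 136 in the control pools (log2 change 0.78, SE 0.16, limma adjusted p = 0.00681). No dKO pool overlapped a control pool for any of them, and dKO 1 was set apart upward for Etfb. The Etfa call was lost without dKO 2 (limma adjusted p = 0.0547). Other genes share 58.2% of the exonic bases of Etfb, so its level is uncertain.

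Of the 2 genes at the ketone step, 1 rose. Acat1, the mitochondrial acetoacetyl-coenzyme A thiolase, had 393, 398 and 386 in the dKO pools and 224, 269.6 and 278 in the control pools (log2 change 0.61, SE 0.12, limma adjusted p = 0.00631). Oxct1, which transfers coenzyme A to acetoacetate and so opens ketone use outside the liver, averaged 562 ± 73.4 in dKO pools and 412 ± 48.7 in control pools (SD, n = 3 each). Its groups did not overlap, but the change of 0.45 did not pass (limma adjusted p = 0.0538), and DESeq2 on the recovered reads called it (adjusted p = 0.0171). Other genes share 12.6% of the exonic bases of Oxct1.

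The citric acid cycle rose nearly as a whole, and Suclg2 was the exception. Idh2, the mitochondrial isocitrate dehydrogenase that makes NADPH, had 858, 814 and 869.6 in the dKO pools and 268, 400.0 and 427 in the control pools (log2 change 1.24, SE 0.18, limma adjusted p = 0.001). Ogdh, the first subunit of the 2-oxoglutarate dehydrogenase complex, had 473, 557 and 589 in the dKO pools and 180.0, 236 and 311 in the control pools (log2 change 1.18, SE 0.19, limma adjusted p = 0.00193). Both had wide gaps between the genotypes, with the lowest dKO pool well above the highest control pool. The other subunits of that complex, Dlst and Dld, changed by 0.88 (limma adjusted p = 0.00355) and 0.83 (limma adjusted p = 0.00707). Dld also serves the pyruvate and branched-chain complexes. All 3 subunits of the NAD-linked isocitrate dehydrogenase rose. Its catalytic subunit Idh3a had 324, 385 and 381 in the dKO pools and 124, 249 and 208 in the control pools (log2 change 0.96, SE 0.22, limma adjusted p = 0.0122). Idh3b changed by 0.65 (limma adjusted p = 0.00859) and Idh3g by 0.82 (limma adjusted p = 0.019). Idh3g no longer passed when dKO 2 (limma adjusted p = 0.0687) or dKO 3 (0.0659) was left out.

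Malate dehydrogenase has a cytosolic form, Mdh1, which belongs to the malate-aspartate shuttle, and a mitochondrial form, Mdh2. Mdh1 had 958, 860.4 and 771 in the dKO pools and 274, 533 and 447 in the control pools (log2 change 1.09, SE 0.22, limma adjusted p = 0.00657). Mdh2 averaged 435 ± 66.1 in dKO pools and 232 ± 55.0 in control pools (SD, n = 3 each; log2 change 0.93, limma adjusted p = 0.00652). Both forms therefore rose. Fh1, fumarate hydratase, had 369, 409.9 and 416 in the dKO pools and 133, 239.6 and 248 in the control pools (log2 change 0.99, SE 0.21, limma adjusted p = 0.00865). Citrate synthase, Cs, which begins the cycle, averaged 619.6 ± 36.3 in dKO pools and 351 ± 86.1 in control pools and changed by 0.85 (limma adjusted p = 0.00799).

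Succinyl-coenzyme A synthetase pairs the alpha subunit Suclg1 with 1 of 2 beta subunits, Sucla2 in the ATP-forming and Suclg2 in the GTP-forming enzyme. Sucla2 had 282, 271 and 250.2 in the dKO pools and 100.1, 175 and 164 in the control pools (log2 change 0.91, SE 0.19, limma adjusted p = 0.00815). Suclg2 had 188, 189.6 and 199 in the dKO pools and 147, 166 and 141 in the control pools. The Suclg2 groups did not overlap, but the change of 0.35, with a 95% interval from 0.09 to 0.60, did not pass (limma adjusted p = 0.0535). It passed with DESeq2 (adjusted p = 0.0369) and without control 2 (limma adjusted p = 0.0441). The ratio of Sucla2 to Suclg2 was 1.50, 1.43 and 1.26 in the dKO pools and 0.683, 1.05 and 1.17 in the control pools. On the log2 scale this is a difference of 0.56, dKO minus control (exact two-sided permutation p = 0.1, the smallest possible). Without control 1 it was 0.33. Suclg1 averaged 156 ± 15.6 in dKO pools and 97.0 ± 22.3 in control pools (log2 change 0.70, limma adjusted p = 0.0157), a call lost without dKO 2 (limma adjusted p = 0.0619).

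Set side by side, the 2 sets of chosen genes differed in the range of their changes. Log2 changes ran from 0.35 to 1.24 over the 14 citric acid cycle genes and from -0.39 to 1.51 over the 25 of fatty acid oxidation. The sets differ in size and were chosen by name, and evenness was not tested. In the further lists described below, changes ran from -0.90 to 1.29 for the citric acid cycle and pyruvate dehydrogenase. For fatty acid oxidation they ran from -0.55 to 1.54. The mean log2 level of fatty acid oxidation genes minus that of citric acid cycle genes was -0.99, -1.04 and -1.09 in dKO 1, 2 and 3, against -0.77, -0.96 and -0.77 in controls 1, 2 and 4. The value was lower in each dKO pool than in any control pool, by a margin of 0.03 between the nearest pools. No test of this score was made, since the genes were chosen with results of these data known. Exon length was taken over all annotated exons of a gene merged, so ranks between genes depend on the annotation. Per kilobase of exon, the highest levels in dKO pools were those of Fabp3 at 482, Acadl at 422, Mdh1 at 336 and Idh2 at 327. In control pools they were those of Fabp3 at 221, Acadl at 214, Mdh1 at 163 and Acaa2 at 152, so that Acaa2 had rank 6 in the dKO pools and rank 4 in the control pools.

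The other genes of these pathways were taken from lists written from general knowledge. Beside their counts stand the shares of all genes, 9.81% higher and 12.2% lower. With the cardiomyocyte covariate, 18 of the 18 genes chosen from these lists by the naming rule no longer passed, at a smallest adjusted p of 0.0851 in limma. That fit called 0.406% of all genes higher and 1.51% lower. Its covariate does not overlap between the genotypes, so the lost calls cannot tell cardiomyocyte RNA and genotype apart. Of 21 further genes of the citric acid cycle and pyruvate dehydrogenase, 15 rose and 0 fell, with a median log2 change of 0.78. Got1, the cytosolic aspartate transaminase of the malate-aspartate shuttle, had 192, 147 and 143 in the dKO pools and 44.5, 91.4 and 66.3 in the control pools (log2 change 1.29, SE 0.23, limma adjusted p = 0.00335). Sdha, the flavoprotein of succinate dehydrogenase, averaged 1133 ± 91.3 in dKO pools and 540.4 ± 144 in control pools (SD, n = 3 each; log2 change 1.10, limma adjusted p = 0.0038). Pdk1, a kinase that switches off pyruvate dehydrogenase, averaged 289 ± 22.1 in dKO pools and 160.3 ± 32.8 in control pools (log2 change 0.86, limma adjusted p = 0.004). The list thus held both enzymes and their inhibitors among the genes that rose. The cytosolic Idh1 (log2 change -0.43, limma adjusted p = 0.148) and Aco1 (-0.21, limma adjusted p = 0.359) did not pass.

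Of 15 measured genes in a further list of fatty acid oxidation and linked steps, not all of them mitochondrial, 6 rose and 1 fell (median 0.66). Acacb, the acetyl-coenzyme A carboxylase at the mitochondrial surface whose product inhibits carnitine palmitoyltransferase 1, had 40.2, 65.4 and 54.3 in the dKO pools and 11.9, 17.7 and 24.2 in the control pools (log2 change 1.54, SE 0.25, limma adjusted p = 0.00215). Its cytosolic counterpart Acaca, which serves fatty acid synthesis, changed by 0.23 with a 95% interval from -0.24 to 0.69. Acot2, a mitochondrial acyl-coenzyme A thioesterase, changed by 1.13 (limma adjusted p = 0.00537) and the dehydrogenase Acad9 by 0.69 (limma adjusted p = 0.00247). Acadsb, which acts on short branched chains, fell by 0.55 on the log2 scale (limma adjusted p = 0.00933). It had 74.4, 91.3 and 85.4 in the dKO pools and 129, 118 and 122 in the control pools.

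Peroxisomal oxidation, which shortens very long chains outside the mitochondrion, had a median log2 change of 0.01. In that list 1 of 10 genes rose and 0 fell, against 9.81% and 12.2% of all genes. That gene was Hsd17b4, the multifunctional enzyme, at 102, 119 and 97.0 in the dKO pools and 66.4, 69.2 and 77.9 in the control pools (log2 change 0.57, limma adjusted p = 0.0109, and 0.0547 without dKO 2). Among 14 measured genes of further fatty acid uptake and activation, 2 rose and 1 fell (median -0.10), counts near the same shares of all genes. The lipoprotein receptor Vldlr averaged 184 ± 6.80 in dKO pools and 108 ± 17.6 in control pools (log2 change 0.78, limma adjusted p = 0.00327), and the synthetase Acsl3 changed by 0.84 (limma adjusted p = 0.0404). Acsl3 no longer passed when dKO 1 (limma adjusted p = 0.0536), dKO 3 (0.096), control 1 (0.0821) or control 4 (0.102) was left out. Mgll, which breaks down monoacylglycerols, averaged 30.2 ± 4.77 in dKO pools and 46.6 ± 8.91 in control pools and fell by 0.61 on the log2 scale (limma adjusted p = 0.0364). Mgll no longer passed when dKO 2 (limma adjusted p = 0.0998), dKO 3 (0.135), control 2 (0.0945) or control 4 (0.123) was left out.

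Among 15 regulators of oxidative metabolism, 5 rose and 0 fell, and 3 of the 5 encode estrogen-related receptors. These orphan nuclear receptors, with the coactivator encoded by Ppargc1a, are known to activate genes of both pathways in heart. Esrrg had 28.9, 39.4 and 34.7 in the dKO pools and 6.76, 12.4 and 10.2 in the control pools (log2 change 1.74, SE 0.23, limma adjusted p = 0.000636). Ppargc1a had 97.1, 138 and 101 in the dKO pools and 21.7, 45.2 and 47.3 in the control pools (log2 change 1.59, SE 0.27, limma adjusted p = 0.00247). Esrra had 16.8, 12.6 and 9.96 in the dKO pools and 2.69, 4.88 and 4.10 in the control pools (log2 change 1.53, SE 0.28, limma adjusted p = 0.00348). For each of these the lowest dKO pool lay far above the highest control pool. With the cardiomyocyte covariate the changes were 0.94 for Esrrg (limma adjusted p = 0.447), 0.21 for Ppargc1a (0.891) and 0.57 for Esrra (0.764). Esrrb (1.46, limma adjusted p = 0.00526) and the mitochondrial deacetylase gene Sirt3 (0.83, limma adjusted p = 0.0475) rose as well. Sirt3 did not pass with edgeR's quasi-likelihood test (adjusted p = 0.0651), and 12.7% of its exonic bases are shared with other genes, mainly Ric8a. None of the 3 peroxisome proliferator-activated receptor genes passed: Ppara changed by 0.18, with an interval from -0.63 to 0.99, Ppard by 0.63 (limma adjusted p = 0.142) and Pparg by -0.58 (limma adjusted p = 0.251). Ppara was low in all libraries, at 1.40 to 4.60 in dKO pools and 2.0 to 3.22 in control pools, and the wide interval leaves the direction of its change undetermined. The nuclear factors of mitochondrial biogenesis Nrf1 (0.14), Gabpa (0.06) and Tfam (0.08) did not pass either.

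**Figure D5:**
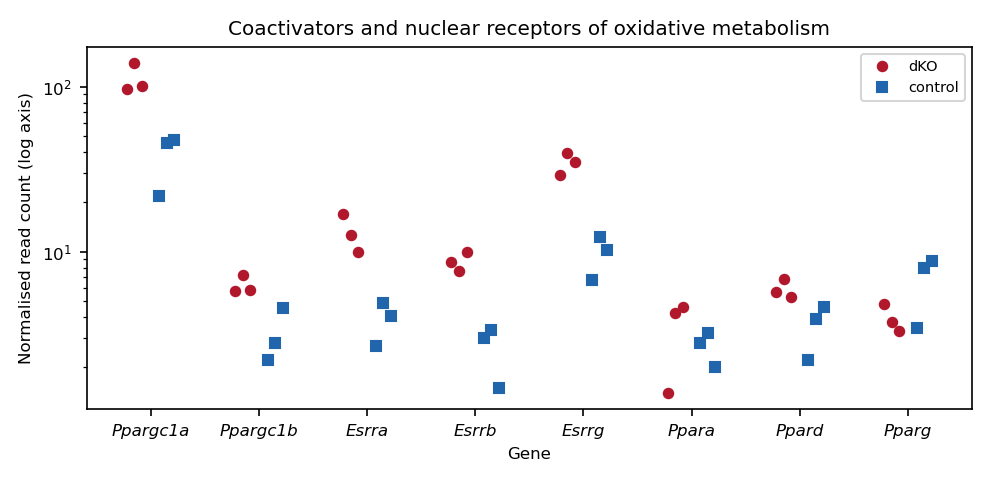
Normalised read counts on a log axis of 2 coactivator genes, 3 estrogen-related receptor genes and 3 peroxisome proliferator-activated receptor genes, with 3 dKO pools (circles, left) and 3 control pools (squares, right) per gene. The groups are separate for Ppargc1a, Esrra, Esrrb and Esrrg and, by a narrower gap, for Ppargc1b and Ppard, which did not pass, and they overlap for Ppara and Pparg.

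Promoters of 33 of the 39 genes, from RefSeq on GRCm38.p6, were searched on both strands for 3 motifs, over 250 bases before and 50 after each annotated start. The motif AAGGTCA, the estrogen-related receptor half-site with part of its extension, occurred in 2 of 33 genes (6.06%), Acadm and Ogdh, and in 5.38% of 27025 genes. The motif of nuclear respiratory factor 1 (NRF1) occurred in 4 of 33 (12.1%), Dld, Etfb, Etfdh and Sucla2, and in 5.19% of all genes. The MEIS core TGACAG occurred in 8 of 33 (24.2%) and in 21.6% of all genes. The shares for AAGGTCA and TGACAG were close to those of all genes, and a match is a description of letters, not a bound site. Shown as examples are 4 promoters of genes that rose, each with one of these motifs in capitals within the 250 bases before its start and with no annotated exon there. Each runs 5′ to 3′ on the strand of its gene and ends at the base before the start.
Acadm, chr3:153944644-153944893, minus strand, with AAGGTCA on the opposite strand: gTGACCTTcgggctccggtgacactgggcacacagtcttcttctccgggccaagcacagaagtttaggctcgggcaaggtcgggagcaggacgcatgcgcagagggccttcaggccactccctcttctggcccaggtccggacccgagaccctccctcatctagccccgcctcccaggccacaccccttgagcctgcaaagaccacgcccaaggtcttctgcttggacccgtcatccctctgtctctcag
Etfb, chr7:43443822-43444071, plus strand, with the NRF1 motif on the opposite strand: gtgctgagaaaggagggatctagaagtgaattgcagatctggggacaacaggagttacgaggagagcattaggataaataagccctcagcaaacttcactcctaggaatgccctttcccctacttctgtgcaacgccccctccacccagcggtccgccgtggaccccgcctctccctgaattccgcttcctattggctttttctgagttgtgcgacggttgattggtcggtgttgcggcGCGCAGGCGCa
Cs, chr10:128337477-128337726, plus strand, with TGACAG on the opposite strand: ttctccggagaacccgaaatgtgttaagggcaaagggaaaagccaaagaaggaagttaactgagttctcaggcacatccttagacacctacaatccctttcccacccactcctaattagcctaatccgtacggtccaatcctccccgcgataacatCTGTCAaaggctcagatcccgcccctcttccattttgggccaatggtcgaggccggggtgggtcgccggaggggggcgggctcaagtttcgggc
Ogdh, chr11:6291347-6291596, plus strand, with TGACAG (its AAGGTCA lies outside these bases): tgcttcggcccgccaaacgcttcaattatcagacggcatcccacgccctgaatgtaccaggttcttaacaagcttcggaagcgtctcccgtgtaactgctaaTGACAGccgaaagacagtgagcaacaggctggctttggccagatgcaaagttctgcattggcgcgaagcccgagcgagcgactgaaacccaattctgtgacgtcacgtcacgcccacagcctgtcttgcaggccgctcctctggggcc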

How the data were processed

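Polyadenylated RNA of 6 libraries, 3 dKO and 3 control, was analysed, with groups taken from the genotype labels. The submitters' processing notes name cutadapt, RSEM 1.3.1 and GRCm38. How the authors normalised the values and which genes they dropped is not stated there. The deposited signal is on a linear scale. Whole reads, offset by 0.5 and divided by a scaled library size per 1000000, were recovered from 100% of the 87294 values to within 0.01 reads. The 39 genes, the lists and the tests were chosen with earlier results of these data known.

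A minimum of 1 in 3 or more libraries kept all 14549 genes. The fit used limma 3.58.1 in R 4.3.3 on log2(value + 1), with a variance trend, no covariate and Benjamini-Hochberg adjustment over all genes at a threshold of 0.05. The log2 change is dKO minus control and is shrunken for genes at low levels. Isoform ratios were compared with an exact permutation test over libraries. On the recovered reads, edgeR 4.0.16 was run as an alternative and called 1303 genes higher and 1653 lower, and DESeq2 1.42.0 was another. The fit was tested on simulated data in which no pool was set apart as control 1 was, so that feature was not covered. Per-library values are given for at most 5 genes per role that passed, by largest change, and for the isoform pairs; from each further list, up to 3 genes per direction with the smallest p are named. Other genes of those lists were named after their values were seen. Exon lengths and overlaps come from GENCODE M21, and the library kit is not stated to keep strand. Nothing in the labels says that the numbers in the titles pair the pools. P-values measure spread between pools of hearts. Results for some genes of the further lists are not reported here.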

Additional observations from a re-analysis of the deposited data

How the results depend on the processing

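Counts and medians kept their values within 1.5 times, or within the spread between replicates, under a pseudocount of 0.5 or 5, no filter or a filter at 5, quantile normalization, no variance trend, edgeR and DESeq2, except that 1 fatty acid oxidation gene, Cd36, was called lower with DESeq2 and with control 1 and dKO 1 both left out, a setting chosen after seeing the data. Without the variance trend, 14 fatty acid oxidation and 11 citric acid cycle genes rose, against 1156 of all 14549 genes. The 5 calls lost there were those of Lpl, Acadl, Etfa, Idh3g and Suclg1 (limma adjusted p 0.0537 to 0.0687). With the replicate block, where numbers 1 and 2 recur, 11 fatty acid oxidation and 10 citric acid cycle genes rose. Lost calls were those of Lpl, Cpt2, Acadl, Hadh, Etfa, Acat1, Cs, Idh3b and Suclg1 (adjusted p 0.0503 to 0.13), and 7 of 18 genes named from further lists. That fit leaves 1 residual degree of freedom. Deviations of same-numbered pools correlated at -0.18 and -0.20, which gives no sign of pairing. With 1 library left out, fatty acid oxidation genes that rose numbered 12 to 17 and those that fell 0 to 1 (median 0.59 to 0.88), citric acid cycle genes that rose numbered 11 to 14 (median 0.66 to 1.03), and the difference in ratio was 1.0 to 1.61 for Cpt1b against Cpt1a and 0.33 to 0.71 for Sucla2 against Suclg2. With the cardiomyocyte score as a covariate, 0 genes of either pathway rose and the medians were -0.034 for fatty acid oxidation and -0.033 for the citric acid cycle. That score does not overlap between the genotypes, so the fit cannot separate score from genotype. The SE of the log2 changes ran from 0.25 to 0.53 in it, and none of the signs given next is settled. Signs then reversed for 21 genes: Lpl -0.0090, Fabp3 -0.45, Acsl1 -0.27, Cpt1b -0.050, Acadl -0.40, Acadm -0.086, Echs1 -0.17, Hadh -0.011, Acaa2 -0.88, Hadhb -0.034, Eci1 -0.17, Decr1 -0.14, Etfa -0.26, Etfb -0.19, Idh3a -0.18, Idh3g -0.19, Sucla2 -0.19, Suclg1 -0.093, Fh1 -0.18, Mdh1 -0.14 and Mdh2 -0.10, at adjusted p of 0.168 or more. With 1 library left out, Cpt1a ranged from -0.022 (without control 2) to 0.20 and Acaa2 from -0.16 (without control 1) to 0.18; without control 1 and dKO 1, Acaa2 changed by -0.17. The cause was not tested.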

Other observations

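Of 11 genes of ketone body and branched-chain metabolism, 4 rose, with a median log2 change of 0.55. Those with the smallest p among the genes that rose were Pcca, a subunit of propionyl-coenzyme A carboxylase (48.7 ± 1.93 in dKO pools and 25.4 ± 5.02 in control pools, log2 change 0.92, limma adjusted p = 0.00293), Dbt, the transacylase of the branched-chain complex (87.9 ± 9.79 in dKO pools and 44.2 ± 10.5 in control pools, 0.99, limma adjusted p = 0.00296), and Hibch of valine breakdown (0.64, limma adjusted p = 0.0314; SD, n = 3 each). Hibch no longer passed when dKO 2 (limma adjusted p = 0.126), dKO 3 (0.106), control 1 (0.067) or control 2 (0.0934) was left out.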
